A study of Mus musculus with 2 samples.

Results

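The interferon-stimulated genes Isg15, Usp18, Irf7, Ifit1, Ifit3, Rsad2, Bst2, Cxcl10 and Ifi27 were followed through the conversion of mouse fibroblasts into muscle progenitor cells. These 9 genes were taken by symbol from the 26100 genes listed in both count tables, and all 9 had unique molecular identifiers (UMIs, one per captured RNA molecule) in both cultures. The data are droplet single-cell transcriptomes of 2 cultures, each with the genotype Tg:Pax7-nGFP/C57BL6;DBA2. The MEF library holds fibroblasts grown out of mouse embryos and kept in MEF media. The iMPC library holds induced myogenic progenitor cells, obtained by giving such fibroblasts MyoD, the transcription factor that starts the muscle programme, and a treatment abbreviated F/R/C in the labels, and then kept in media with F/R/C. The series describes the iMPC culture as a stable clone, so it stands for 1 clone. Each culture gave 1 library, so no comparison had a replicate, no test was possible, and a difference between the cultures and a difference between these libraries cannot be told apart.

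After filtering, the MEF library kept 6043 cells with a median of 18929 UMIs, and the iMPC library kept 9349 cells with a median of 20846. Within iMPC, 4 classes were set by UMIs of marker genes. Pax7+ cells (at least 1 Pax7 UMI and no Myog) stand for the stem and progenitor end and numbered 2180. Myog+ cells (at least 5 Myog UMIs and at most 1 of Ckm) stand for committed cells and numbered 1724, and Ckm+ cells (at least 5 Ckm UMIs), the most differentiated, numbered 1037. Dcn+ cells (at least 5 UMIs of Dcn, a proteoglycan gene of fibroblasts) numbered 553. Of these, 110 were also Pax7+, 18 were also Myog+ and 18 were also Ckm+. The Dcn+ class held the 6 fibroblast markers at a summed level of 2858 UMIs per 1000000 (CPM), against 5480 in MEF and 550 in Pax7+ cells, and it also held the 7 myocyte markers at 4025. It is therefore a mixed class. A further 4001 iMPC cells fell in none of the classes. Levels below are CPM from the UMIs summed over the cells of a group, and their brackets are exact 95% Poisson intervals, which cover counting error only, as do all intervals given here.

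Type I interferons bind the receptor pair encoded by Ifnar1 and Ifnar2, whose kinases Jak1 and Tyk2 pass the signal on inside the cell. A transcription factor complex that includes Stat2 and Irf9 then binds the interferon-stimulated response element (ISRE) in the promoters of antiviral genes. Part of the same programme can also be switched on directly by virus sensors through Irf3 and NF-kB, and fibroblasts are a classical cell type in which it has been studied.

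The promoters are shown because most members with a RefSeq promoter have an ISRE match near the start site, both among those called between the cultures and among those that did not reach 2-fold. RefSeq promoters on GRCm38.p6 were found for 7 of the 9 members, and each window was searched from 250 bases before to 50 bases after the start. The core of the ISRE was searched on both strands as GAAA, then any 2 bases, then GAAA (TTTC, any 2 bases and TTTC in reverse). The kappaB motif was searched as GGG, then any 3 bases, then TTCC (GGAA, any 3 bases and CCC in reverse). Overlapping matches were allowed. The stretches below run 5′ to 3′ towards the start site, with matches to either motif in capitals.
Isg15, chr4:156200819-156200978, minus strand: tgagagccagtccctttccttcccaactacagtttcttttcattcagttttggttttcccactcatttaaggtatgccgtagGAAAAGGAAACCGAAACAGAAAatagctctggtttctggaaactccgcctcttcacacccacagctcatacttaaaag
Ifit1, chr19:34640729-34640888, plus strand: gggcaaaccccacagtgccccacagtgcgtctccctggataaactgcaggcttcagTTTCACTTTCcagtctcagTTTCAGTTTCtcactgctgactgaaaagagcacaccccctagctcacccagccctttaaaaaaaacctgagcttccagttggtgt
Ifit3, chr19:34583369-34583528, plus strand: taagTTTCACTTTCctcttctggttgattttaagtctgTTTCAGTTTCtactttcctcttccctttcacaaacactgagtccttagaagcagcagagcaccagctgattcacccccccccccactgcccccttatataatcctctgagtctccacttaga
Rsad2, chr12:26456453-26456612, minus strand: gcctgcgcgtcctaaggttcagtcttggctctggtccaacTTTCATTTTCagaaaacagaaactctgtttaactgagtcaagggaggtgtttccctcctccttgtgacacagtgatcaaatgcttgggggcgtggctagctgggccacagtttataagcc
Bst2, chr8:71537473-71537632, minus strand: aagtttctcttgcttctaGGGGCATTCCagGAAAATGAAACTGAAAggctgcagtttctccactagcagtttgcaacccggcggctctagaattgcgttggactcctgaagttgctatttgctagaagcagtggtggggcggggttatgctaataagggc
Cxcl10, chr5:92348890-92349109, minus strand: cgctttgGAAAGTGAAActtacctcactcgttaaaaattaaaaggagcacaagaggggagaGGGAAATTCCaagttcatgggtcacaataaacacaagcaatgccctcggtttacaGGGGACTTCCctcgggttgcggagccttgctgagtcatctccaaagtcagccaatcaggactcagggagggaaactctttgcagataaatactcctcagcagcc
The ISRE core was found in 6 of the 7 member promoters and in 3.44% of 32851 promoters of the same length. The 6 are those printed, and the window of Irf7 held no match. In Isg15, 3 overlapping matches ran from base -78 to base -57. In Ifit1 and Ifit3 there were 2 matches each, and Rsad2 had 1, from base -120 to base -111. Bst2 had 2 overlapping matches from base -130 to base -115, and Cxcl10 had 1 from base -213 to base -204. The kappaB motif was found in Bst2 and Cxcl10, at 1 and 2 places, and in 5.56% of all promoters. A match is a description of these letters and not a measured binding site.

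In the fibroblasts the programme was broadly present, and in the iMPC culture most of its members stood far lower. Of the 9 members, 6 were lower in iMPC than in MEF by at least 2-fold, where 22.9% of 12878 genes were. None was higher by 2-fold, where 17.9% of genes were. Ifit3 and Usp18 stood below 1 CPM in iMPC, so they met the minimum through MEF alone and could not have been called higher. The median log2 ratio (iMPC over MEF) was -4.44 for the members and -0.16 for all genes.

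The ubiquitin-like modifier Isg15 was measured at 408 CPM (404 to 411) in MEF and at 4.01 CPM (3.76 to 4.28) in iMPC, a 102-fold difference. Usp18, the protease that removes Isg15 from its targets and damps signalling at the receptor, is kept beside it here. It stood at 33.3 CPM (32.3 to 34.3) in MEF and at 0.137 CPM (0.0941 to 0.194) in iMPC, where the 9349 cells held 32 UMIs of it. At 242-fold and 102-fold lower in iMPC, these were the 2 largest differences of the 9, although the ratio interval of Isg15 overlapped those of Ifit3 and Ifit1.

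Among the antiviral effectors, Ifit1, which binds foreign RNA ends, stood at 115 CPM (113 to 117) in MEF and 1.31 CPM (1.17 to 1.47) in iMPC, an 87.7-fold difference. Ifit3, a partner of Ifit1, stood at 45.8 CPM in MEF and 0.486 CPM in iMPC, a 94.4-fold difference. Its reads can be split with the related copy Ifit3b, since 30.5% of the 31-base words in the last 400 bases of Ifit3 also occur in Ifit3b, and the counts of Ifit3 are therefore uncertain. Of the words in the last 400 bases of Ifit3b, 0% occur in Ifit3. Ifit3b itself stood at 15.1 CPM in MEF and 0.107 CPM in iMPC, so the pair was low in iMPC together. Bst2 (tetherin), which holds budding virus at the cell surface, was the most abundant member in MEF with 734 CPM (729 to 739). In iMPC it stood at 45.0 CPM (44.1 to 45.8), which is 16.3-fold lower. Irf7, the transcription factor that amplifies the interferon response, stood at 31.4 CPM (30.4 to 32.4) in MEF and 1.45 CPM (1.30 to 1.61) in iMPC, a 21.7-fold difference.

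The other 3 members did not reach 2-fold. Ifi27, a small mitochondrial protein gene, stood at 134 CPM in MEF and 68.6 CPM in iMPC, a log2 ratio of -0.97 (-1.0 to -0.94). Rsad2 (viperin), an antiviral enzyme, stood at 2.19 CPM (1.93 to 2.47) in MEF and 1.65 CPM (1.49 to 1.83) in iMPC. Cxcl10, a chemokine that attracts activated T cells, stood at 5.23 CPM (4.82 to 5.66) in MEF and 2.85 CPM (2.64 to 3.08) in iMPC. The last pair were thus low in both cultures, and the sign of their ratio changed under other settings, from -1.63 to 0.13 for Cxcl10 and from -0.62 to 0.47 for Rsad2.

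**Figure D1:**
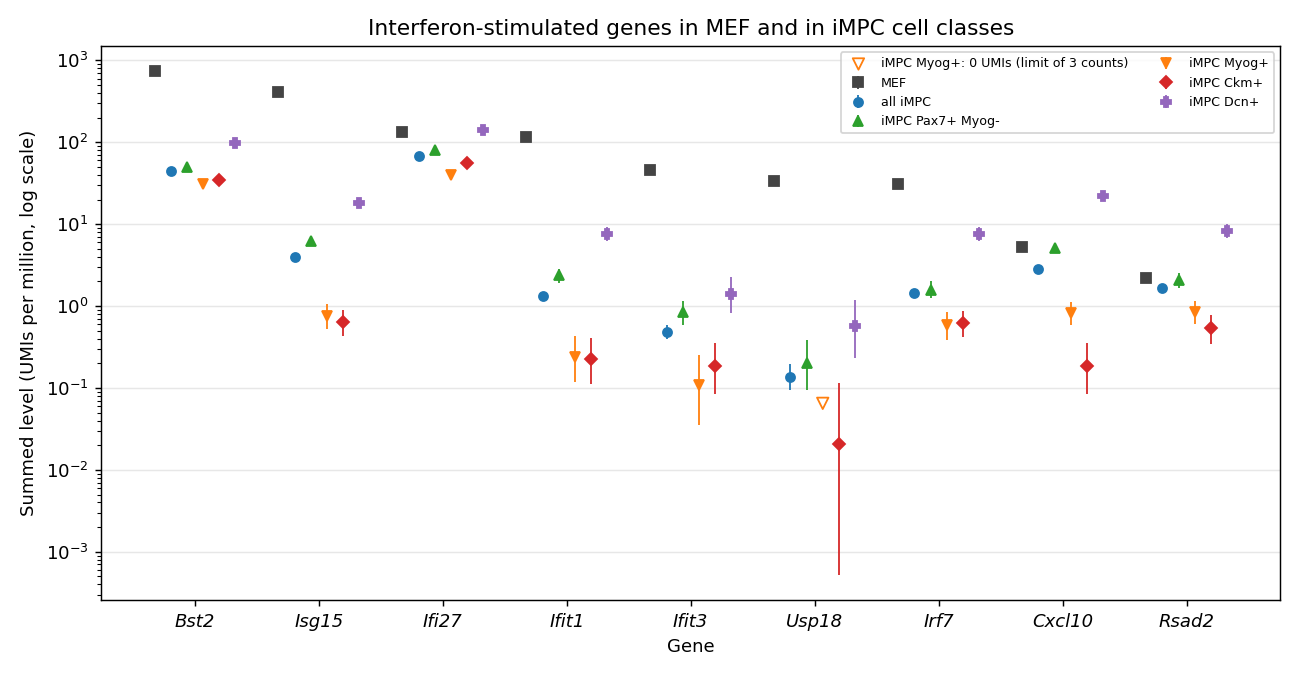
Summed level of each member (CPM, log scale) in MEF, in all iMPC cells and in the 4 iMPC classes, with exact 95% Poisson intervals for counting error as bars and the limit of 3 counts as an open symbol where no UMI was seen. MEF lies highest for Bst2, Isg15, Ifit1, Ifit3, Usp18 and Irf7. The Dcn+ class lies highest for Cxcl10 and Rsad2, and for Ifi27 at 143 CPM beside 134 CPM in MEF. Without the 1 cell that held most of either, the Dcn+ class stands at 3.45 CPM for Cxcl10 and 3.04 CPM for Rsad2. Cxcl10 is then no longer highest there, with 3.77 CPM in Pax7+ cells without their own top cell.

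For the 6 members that stood lower, the share of cells with a UMI was lower in iMPC as well. Isg15 was seen in 81.4% of MEF cells and in 4.85% of iMPC cells. When each cell was thinned to 5000 UMIs, which leaves out 284 shallower MEF cells, the shares were 68.3% (67.1 to 69.5, exact binomial) and 1.73% (1.48 to 2.02). Bst2 was seen in 93.1% of MEF cells and 50.3% of iMPC cells, and in 84.6% and 18.1% after thinning. The median MEF cell carried 648 CPM of Bst2 and 295 CPM of Isg15, and the cell at the 90th percentile carried 1437 and 909. Isg15 and Bst2 were therefore carried by most fibroblasts and not by a small part of them. Usp18 was seen in 38.6% of MEF cells and 0.278% of iMPC cells, and in 14.2% and 0.107% after thinning. Without thinning Rsad2 was seen in 2.09% of iMPC cells (1.81 to 2.40) and 1.74% of MEF cells (1.42 to 2.10). Cxcl10 was seen in 1.29% (1.08 to 1.54) and 1.17% (0.919 to 1.48), so the intervals overlapped for both. After thinning the shares in iMPC and MEF were 0.578% and 0.486% for Rsad2 and 0.449% and 0.625% for Cxcl10, and the intervals of the cultures overlapped for both genes.

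Counting genes per cell gave the same picture for the 7 members other than Bst2 and Ifi27, a subset chosen after the levels had been seen. In MEF, 88.0% of cells held a UMI of at least 1 of the 7 and 50.9% held at least 3. In iMPC, the shares were 10.0% and 0.717%, the latter being 67 cells. After thinning, at least 3 of the 7 were seen in 17.2% of MEF cells and 0.246% of iMPC cells.

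**Figure D2:**
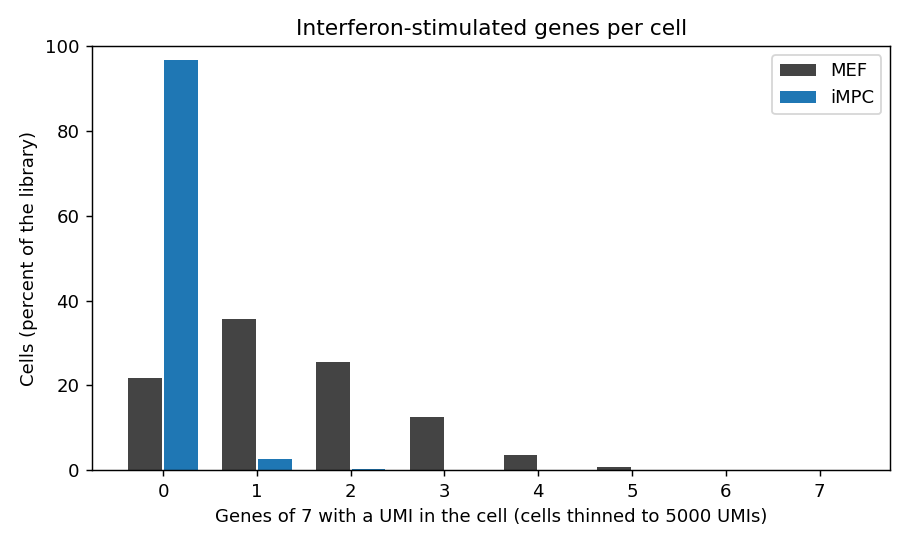
Percent of the cells of each library, thinned to 5000 UMIs, that held a UMI of 0 to 7 of the members Isg15, Usp18, Irf7, Ifit1, Ifit3, Rsad2 and Cxcl10. In iMPC 96.7% of cells held none, against 21.7% in MEF.

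Within the iMPC culture, the members stood lowest in the Myog+ and Ckm+ classes and highest in the Dcn+ class. Of the 7 members at 1 CPM or more in Pax7+ or Myog+ cells, 5 were lower in Myog+ cells by at least 2-fold, where 15.8% of 12315 genes were, and none was higher, where 8.01% were. In Ckm+ cells 5 of 7 were lower than in Pax7+ cells, where 34.7% of 12520 genes were, and none was higher, where 12.9% were. The 5 were Isg15, Ifit1, Irf7, Rsad2 and Cxcl10 in both comparisons, which share the Pax7+ cells. All 5 stood below 1 CPM in Myog+ and in Ckm+ cells. They met the minimum through Pax7+ cells alone and could not have been called higher, so their direction is not evidence by itself. In Dcn+ cells the same genes, 5 of 8 members, were higher than in Pax7+ cells by 2-fold or more, where 14.4% of 12617 genes were, and none was lower, where 7.66% were. Without each member's top cell 3 were, namely Isg15, Ifit1 and Irf7, and Cxcl10 then stood at 3.45 CPM in Dcn+ and 3.77 CPM in Pax7+ cells. Without the 1% of iMPC cells with most member UMIs 2 were, and the log2 ratio of Ifit1 turned to -0.25.

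Isg15 stood at 6.22 CPM (5.51 to 7.01) in Pax7+ cells, 0.758 in Myog+ cells, 0.637 in Ckm+ cells and 18.0 (15.7 to 20.5) in Dcn+ cells. The intervals of Myog+ and Ckm+ cells overlap, and both lie below that of Pax7+ cells. Thinned to 5000 UMIs, 2.80% of Pax7+ cells, 0.232% of Myog+ cells, 0.193% of Ckm+ cells and 5.24% of Dcn+ cells held Isg15. Without thinning the shares were 5.92%, 1.16%, 1.83% and 12.8%, at median depths of 18729.5, 23857.5, 42148 and 18064 UMIs. The order of the classes at equal depth was therefore that of the levels. Ifit1 stood at 2.36, 0.238, 0.226 and 7.64 CPM in the same order of classes. Irf7 stood at 1.59, 0.584, 0.617 and 7.64 CPM, and its share of Dcn+ cells was 11.0%, or 2.71% after thinning. For Irf7 no single Dcn+ cell mattered, since it stood at 7.0 CPM there without the cell that held most. Usp18 had 9 UMIs in Pax7+ cells, 0 in Myog+ cells, where 3 counts would be 0.0649 CPM, 1 in Ckm+ cells and 7 in Dcn+ cells, which is too few to order the classes.

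Bst2 and Ifi27, the members that remained common in iMPC, differed less between the classes. Bst2 stood at 50.5 CPM in Pax7+ cells, 30.8 in Myog+ cells, 34.3 in Ckm+ cells and 97.9 in Dcn+ cells. Ifi27 stood at 79.7, 40.1, 55.7 and 143 CPM. None of these passed 2-fold against Pax7+ cells. When cells in more than 1 class were left out, 8 members were higher in Dcn+ than in Pax7+ cells by 2-fold in place of 5. Bst2 and Ifi27 were among them, with log2 ratios of 1.17 and 1.03. The share of all genes was not counted for this setting, so the 8 have no background beside them.

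Compared with MEF, the Dcn+ cells of iMPC stood lower in most members. In Dcn+ cells 6 of 9 members were lower than in MEF, where 14.8% of 12924 genes were, and 2, Rsad2 and Cxcl10, were higher, where 17.6% were. Isg15 was 22.7-fold lower in them, Usp18 57.9-fold, Ifit3 32.8-fold, Ifit1 15.0-fold, Bst2 7.49-fold and Irf7 4.11-fold. Usp18, at 0.575 CPM in Dcn+ cells, met the minimum of 1 CPM through MEF alone. Ifi27 stood at 143 CPM in Dcn+ cells and 134 CPM in MEF. Both higher calls against the whole MEF library rested on 1 cell. Cxcl10 stood at 22.1 CPM in Dcn+ cells and at 3.45 CPM without the cell that held most, and Rsad2 at 8.30 CPM and 3.04 CPM, so that neither was higher than in MEF by 2-fold once each member's top cell was left out. A comparison with the 2179 MEF cells that themselves held at least 5 Dcn UMIs was added after the data had been seen. The counts were again 6 lower and 2 higher, where 15.2% and 18.2% of genes were. Isg15 was 23.1-fold lower, Cxcl10 14.9-fold higher and Rsad2 6.88-fold higher. Without the top cell of each group, Cxcl10 stood at 3.45 CPM in Dcn+ iMPC cells and 1.27 CPM in these MEF cells. Rsad2 stood at 3.04 and 1.08 CPM, so both were still higher in the iMPC cells.

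The UMIs of most members in iMPC came from a few cells. For 5 of the 7 members with at least 1 CPM there, 50% or more of the UMIs lay in the 1% of cells (94 cells) that held most of them, where 1.7% of 12025 genes reached that. In MEF 2 of 9 members did, Cxcl10 and Rsad2, with 1% being 61 cells, where 2.14% of 11801 genes did. The median gene had 10.8% of its UMIs in that 1% of cells in iMPC and 9.69% in MEF. A gene with few UMIs is bound to be concentrated, so the lowest share its UMI number allows is given with the iMPC values. The shares of all genes cover every level from 1 CPM up and were not matched to the UMI numbers of the members.

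By the number of cells that held 50% of its UMIs, Cxcl10 was the most concentrated member in both cultures. The top 1% of cells held 95.9% of its UMIs in iMPC (lowest possible 14.2%) and 98.4% in MEF. In iMPC it had 664 UMIs in 121 cells, and 3 cells held 50% of them, with 227 in 1 cell. In MEF it had 617 UMIs in 71 cells, and 2 cells held 50%, with 263 in 1 cell. Had its UMIs fallen in proportion to depth, about 634 iMPC cells and 580 MEF cells would have held one. Rsad2 had 50% of its 385 UMIs in 18 iMPC cells and of its 258 UMIs in 8 MEF cells, with 73.8% in the top 1% of iMPC cells (lowest possible 24.4%). These 2 genes were thus carried by few cells in the fibroblasts as well, although Isg15 and Bst2 were widespread there.

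For Ifit1 and Isg15 these shares differed between the 2 cultures, and so did the UMI numbers behind them. Ifit1 had 50% of its 305 UMIs in 14 iMPC cells and of its 13563 UMIs in 541 MEF cells, and the 1% of cells with most held 97.0% in iMPC (lowest possible 30.8%) and 15.4% in MEF (lowest possible 0.450%). Isg15 had 50% of its UMIs in 70 iMPC cells and in 1065 MEF cells, and the top 1% of cells held 56.1% in iMPC (lowest possible 10.1%) and 5.83% in MEF. Irf7, at 51.6% in the top 1% of iMPC cells (lowest possible 27.9%), was only just past the mark. Its iMPC cells numbered 0.781 of those that depth alone would give, and 11.6% of genes had a lower ratio. By this measure Irf7 was not unusual in iMPC. For Isg15, Ifit1, Rsad2 and Cxcl10 the percent of genes with a lower ratio in iMPC was 2.59, 0.732, 2.64 and 0.0499. In MEF the ratio was 0.658 for Ifit1, 0.638 for Ifit3, 0.830 for Irf7 and 0.835 for Isg15. The percent of genes with a lower ratio there was 1.87, 1.64, 6.46 and 6.75. By this measure Ifit1 and Ifit3 were thus held by fewer cells than most genes in MEF as well. Bst2 and Ifi27 were spread in both cultures, with 960 and 1455 iMPC cells holding 50% and 13.5% (lowest possible 0.898%) and 6.62% (lowest possible 0.589%) in the top 1%. Ifit3 and Usp18, with 113 and 32 UMIs in iMPC, were too sparse there to be judged.

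**Figure D3:**
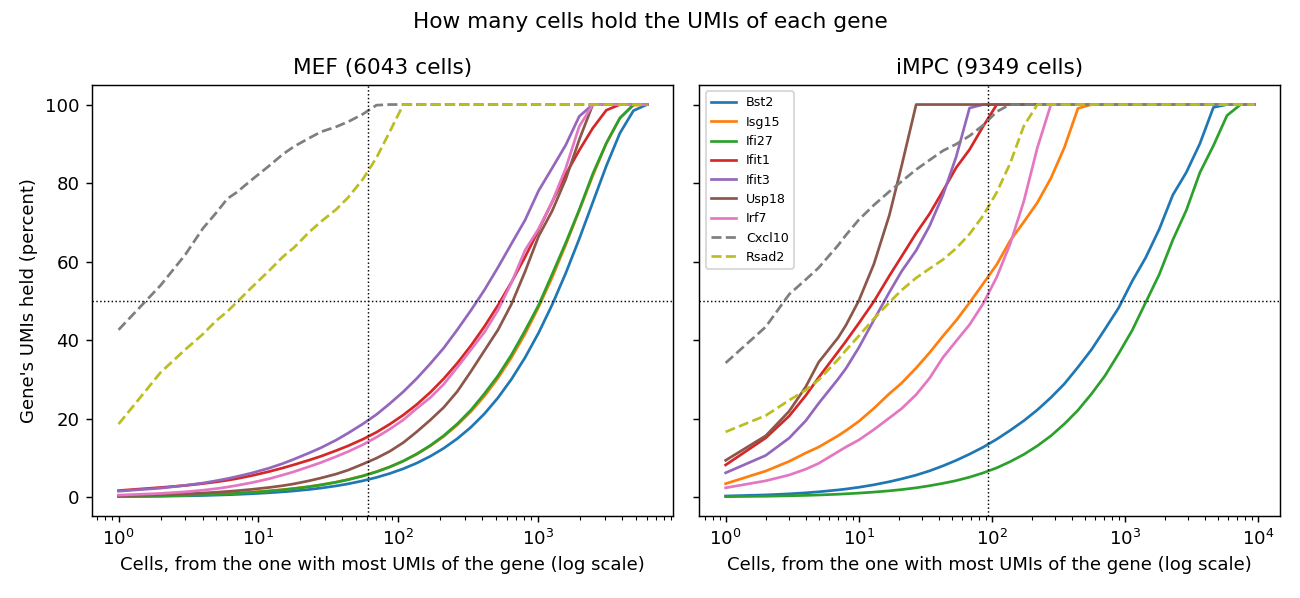
Percent of each member's UMIs (vertical axis) held by the cells that have most of them (horizontal axis, number of cells on a log scale), in MEF and iMPC, with 50% and 1% of cells as dotted lines. In MEF only Cxcl10 and Rsad2 cross 50% to the left of the 1% line, while in iMPC all members but Bst2 and Ifi27 do, those with few UMIs among them.

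The cells at the top were looked at one by one, together with the chemokine gene Ccl5 and the Ifit1 relative Ifit2, which were chosen after their values had been seen. The iMPC cell with most Cxcl10 was a Dcn+ cell of 11208 UMIs that held 227 UMIs of Cxcl10, 194 of Ccl5, 64 of Rsad2, 34 of Ifit2, 20 of Isg15, 16 of Ifit1 and 7 of Ifit3. The second and the third were Pax7+ cells with 61 and 55 Cxcl10 UMIs and 17 and 8 of Ifit1. In each of these cells other members were present too, so none was a cell with Cxcl10 alone. The MEF cell with most Cxcl10, of 33309 UMIs, held 263 of Cxcl10, 131 of Isg15, 77 of Bst2, 53 of Ccl5, 48 of Rsad2 and 44 of Ifit1. The second in MEF held 227 UMIs of Ifit1, 82 of Ifit3, 78 of Isg15 and 70 of Cxcl10. The interferon gene Ifnb1 and the leukocyte marker Ptprc had 0 UMIs in all 6 cells, and none of the 6 barcodes was kept in both libraries.

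**Figure D4:**
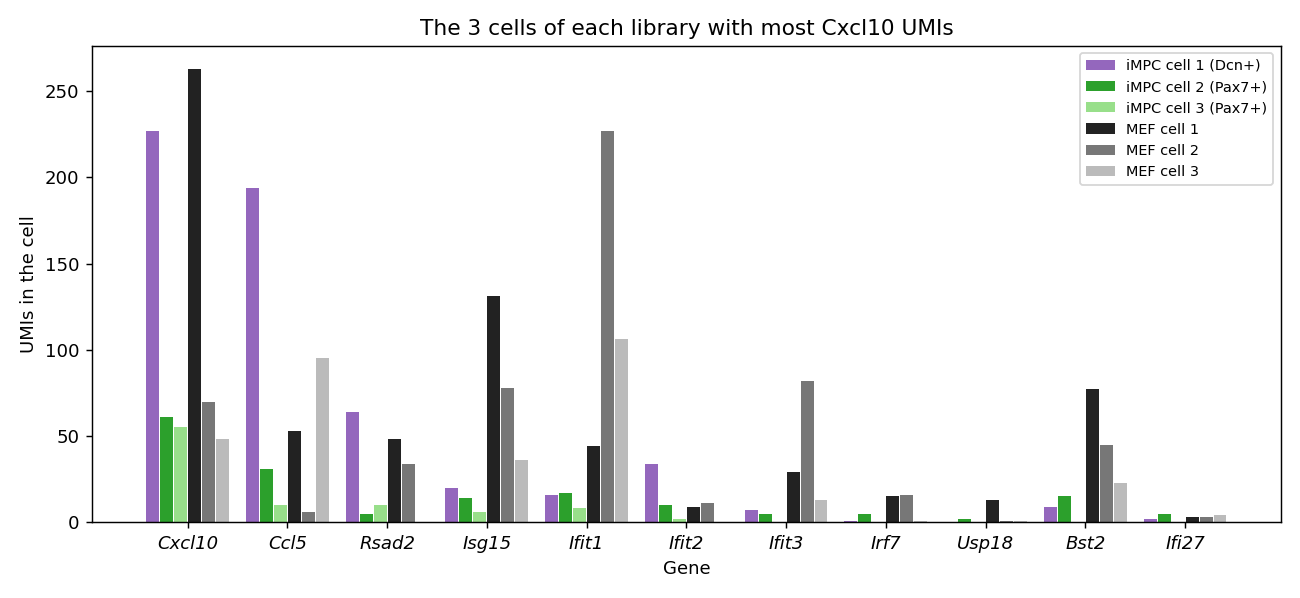
UMIs of 11 genes (bars, linear scale from 0) in the 3 cells of each library with most Cxcl10 UMIs. The first MEF cell has most Cxcl10 (263) and the first iMPC cell most Ccl5 (194) and Rsad2 (64), and both also carry Isg15, Ifit1, Ifit3 and Bst2.

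Cells with at least 5 Cxcl10 UMIs numbered 18 in iMPC, of which 7 were Pax7+, 2 Myog+, 0 Ckm+, 4 Dcn+ and 5 in no class, and 15 in MEF. The genes with the largest ratio to the other iMPC cells, among those at 50 CPM or more in the 18, were Oasl1, Ifit1, Rsad2, Cxcl9, Ifit3, Ccl5, Isg15, Oasl2, Ifih1 and Ifit2, though all UMIs of Cxcl9, 65.4% of those of Ifit2, 55.7% of those of Ccl5 and 51.6% of those of Rsad2 in the 18 came from 1 cell. Ifit1 stood at 301 CPM in the 18 cells and 0.852 CPM in the rest, with UMIs in 13 of the 18. Isg15 stood at 397 and 3.41 CPM, again in 13 of the 18. The level of Isg15 in these cells, with 21.3% of its UMIs from 1 cell, was close to the 408 CPM of the whole MEF library. That library was not selected for Cxcl10, and in MEF cells with a Cxcl10 UMI Isg15 stood at 761 CPM. In the 15 MEF cells the leading genes were Rsad2, Ccl5, Cmpk2, Iigp1, Ifi47, Ifit3b, Ifit3, Slfn9, Herc6 and Ifit1, with Ifit1 at 1707 CPM against 110 in the rest. Here too 1 cell weighed heavily. The top cell of each gene held 55.2% of the UMIs of Ifi47 in the 15, 44.9% for Rsad2, 44.8% for Ccl5, 41.9% for Iigp1 and 35.5% for Ifit1, and less for the others. The 10 genes of either set were named by rank, and Rsad2, Ccl5, Ifit3 and Ifit1 were in both. Cells with at least 5 Ifit3 UMIs numbered 252 in MEF and 5 in iMPC.

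Most iMPC cells with a UMI of the 7 members held only 1 of them, 771 of 937 cells. A smaller set held several. Isg15 was seen in 50.5% of the 103 iMPC cells with Ifit1 and in 4.34% of the others, while Ifit1 was seen in 11.5% of the 453 cells with Isg15. Isg15 was seen in 19.0% of the 195 cells with Rsad2. Over the 9349 iMPC cells the Pearson correlation of log-transformed levels was 0.53 between Isg15 and Ifit1, 0.53 between Rsad2 and Ifit1 and 0.52 between Cxcl10 and Ifit1. The points share a library and differ in depth, and most are 0, so these values describe few cells. The 67 iMPC cells with at least 3 of the 7 members held 52.6% of all UMIs of the 7. They made up 0.963% of Pax7+ cells (0.597 to 1.47), 0.116% of Myog+ cells (0.0141 to 0.418), 0.386% of Ckm+ cells (0.105 to 0.985) and 2.35% of Dcn+ cells (1.26 to 3.99). They were therefore found in every class, although only 2 were Myog+ cells and 4 were Ckm+ cells, and classes can share cells.

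In MEF the strongest relation was between the widespread members Isg15 and Bst2. The correlation over 6043 cells was 0.55 between Isg15 and Bst2, 0.47 between Ifit1 and Ifit3 and 0.47 between Rsad2 and Cxcl10. The genes most like Bst2 in MEF were Isg15, Ifitm3, Lgals3bp, B2m and Ifit1, with 0.55 for the first and 0.32 for the last. Ifi27 stood apart from the other members, with 0.05 to Isg15 and 0.01 to Ifit1. In iMPC the genes most like Ifi27 were Ifitm3 (0.46) and the collagen genes Col6a1, Col6a2, Col5a2 and Col3a1, and those most like Bst2 were Lgals3bp (0.34), Bgn, Ifitm3, Col6a3 and Timp3. Most of these encode extracellular matrix proteins.

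The rest of the pathway was compared over lists of genes chosen by role. Of 58 other interferon-stimulated genes, 47 reached 1 CPM in either library. Of these, 45 were lower in iMPC by 2-fold and 1 (Epsti1) was higher, where 22.9% and 17.9% of all genes were. The median log2 ratio was -3.48. Some, Trim30a and Ifit3b among them, stood below 1 CPM in iMPC and met the minimum through MEF alone. These could not have been called higher, and Epsti1, which met it through iMPC alone, could not have been called lower. Among those at 10 CPM or more, Trim30a was lowest relative to MEF, at 0.0687 CPM in iMPC and 11.9 in MEF. Ifitm3, a membrane protein that blocks virus entry, was abundant in both, at 364 CPM in iMPC and 1997 in MEF. For antigen presentation 9 of 12 genes were lower and none was higher, with H2-D1, a class I heavy chain, at 9.38 CPM in iMPC and 232 in MEF, and B2m, its light chain, at 141 and 1139. Of 17 virus sensors and adaptors 9 were lower and none was higher, led by Ddx58 (RIG-I) at 2.93 and 53.8 CPM.

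Of 14 receptor and signalling genes 5 were lower, 2 were higher and 7 did not reach 2-fold, where 22.9% of all genes were lower and 17.9% higher. The receptor genes Ifnar1 and Ifnar2 had log2 ratios of -0.25 and 0.33, and the kinase genes Jak1 and Tyk2 had -0.04 and -1.19, so of these 4 genes Tyk2 alone was called lower, at 4.01 CPM in iMPC and 9.16 in MEF. Of the complex that binds the ISRE, Stat2 stood lower, at 2.89 CPM in iMPC and 30.0 in MEF, and so did Irf9, at 3.76 and 31.7. Both are themselves known interferon-stimulated genes. Socs3, a feedback inhibitor of cytokine receptors, was higher, at 31.8 CPM in iMPC and 7.22 in MEF. Of 14 ligand genes none reached 1 CPM in either library. Ifnb1 had 1 UMI in iMPC and 0 in MEF, and Ifng had 9 and 0.

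Among 22 genes of the NF-kB and stress response 7 were higher and 7 lower in iMPC, beside the same 17.9% and 22.9% of all genes. The chemokine genes Ccl7 and Ccl2 were lower, at 16.8 and 21.6 CPM in iMPC against 536 and 508 in MEF. The early response genes Atf3 and Jun were higher, at 24.0 and 402 CPM in iMPC against 0.423 and 69.9 in MEF. Over all these lists 75 of 112 genes were lower and 10 were higher. The lower calls were thus most frequent among interferon-stimulated genes and antigen presentation genes, and a difference between the lists was not tested.

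**Figure D5:**
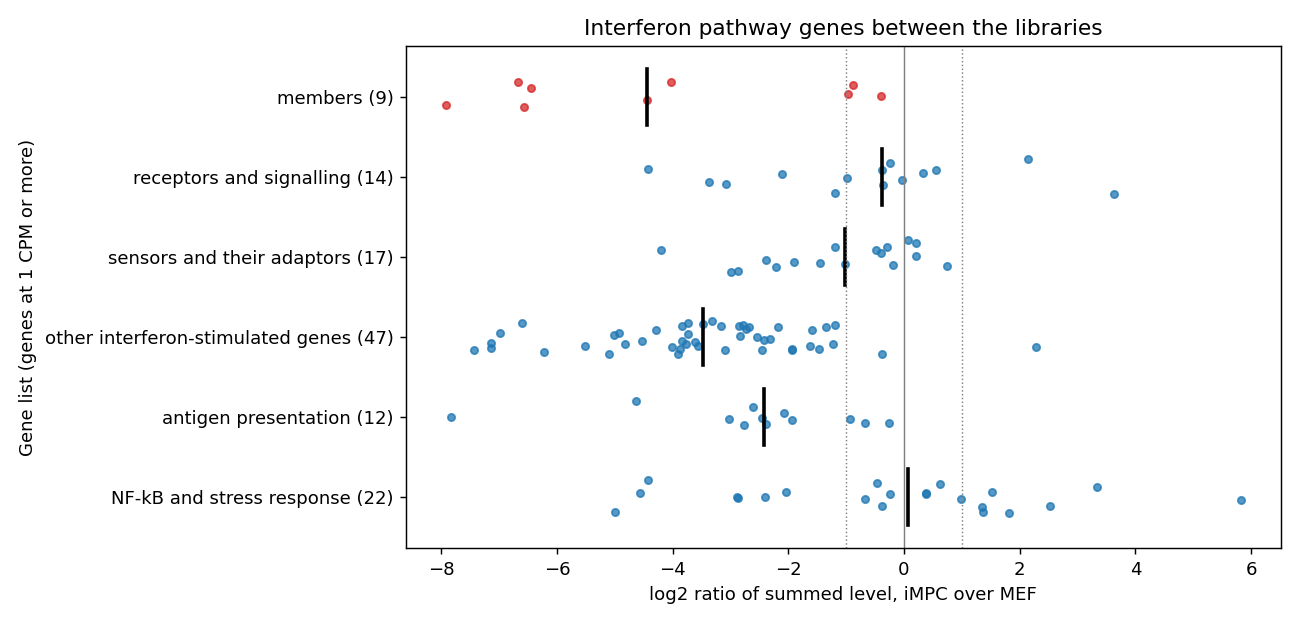
Log2 ratio of summed levels (iMPC over MEF) for each gene at 1 CPM or more in either library, by list, with medians as black bars and 2-fold as dotted lines. The median is -4.44 for the 9 members, -3.48 for 47 other interferon-stimulated genes and 0.07 for 22 NF-kB and stress genes.

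Some defining markers of immune cells had no UMI in either culture. Of the 10 macrophage markers, Adgre1, C1qa, C1qb and Tyrobp had 0 UMIs in both libraries and Ptprc had 1 in each. Cd68 had 377 UMIs in MEF and 398 in iMPC, Fcer1g had 42 and 412, and Cd14 had 236 and 53. The summed level was 6.03 CPM in MEF and 4.16 in iMPC, from 2.29 to 5.82 over the 4 classes, and the part of such cells in the results was not tested. Siglech, a marker of plasmacytoid dendritic cells, had 0 UMIs in both. RNA outside cells was gauged in 48846 iMPC barcodes of 200 to 600 UMIs. There Isg15 stood at 2.49 CPM, Ifit1 at 0.518, Irf7 at 0.847, Rsad2 at 0.565, Cxcl10 at 1.27, Bst2 at 32.3 and Ifi27 at 53.6. In Myog+ cells 8 of the 9 members lay below the level in these barcodes, Rsad2 being the exception, and in Ckm+ cells 7 did, with Bst2 and Ifi27 above. Another choice of barcodes moves this gauge. In iMPC barcodes of 1 to 100 UMIs that the MEF matrix does not list, Isg15 stood at 5.79 CPM (4.28 to 7.65) and Ifit3 at 1.06, above their 4.01 and 0.486 CPM in all iMPC cells. Ckm stood at 181 CPM in the barcodes of 200 to 600 UMIs and at 95.8 in iMPC cells. Levels at or below those of the barcodes are thus not separated here from RNA outside cells. Such RNA was subtracted at the median of 430 UMIs per cell from the iMPC groups alone, and MEF was left uncorrected. The counts of members called between groups stayed as above, except that 6 in place of 5 were lower in Myog+ than in Pax7+ cells. Leaving out the 16 barcodes kept in both libraries, an alternative added after the data had been seen, changed none of these counts.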

How the data were processed

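Single-cell transcriptomes were measured in 1 iMPC and 1 MEF library on the 10x Genomics platform (3′ kit v3), per the labels' protocols. The deposited files give, for every barcode, the UMI counts of each gene without normalisation, per the file headers. The submitters' processing notes name Cell Ranger 4.0, Seurat 3.2.3 and GRCm38.p6, and the aligner settings and the annotation are not given in the sources used here. The MEF treatment protocol text repeats that of iMPC, while its treatment label names MEF media, and the label was used.

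The 26100 genes in both matrices were used, and 24 genes listed for MEF alone, with 0.209% of its UMIs, were left out. The iMPC matrix lists 6794880 barcodes, of which those with at least 8036 UMIs were kept, and all 6113 listed MEF barcodes entered, with at most 20% mitochondrial UMIs in both. The kept cells held 232728796 UMIs in iMPC and 118069653 in MEF. Doublets were kept in the values given. As an alternative Scrublet removed 337 iMPC cells (3.60%) at its own threshold. In MEF that threshold marked 1 cell, so the 290 highest scores (4.80%) were removed there.

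Ratios were computed from CPM of summed UMIs, and a gene was called at 2-fold if the higher group reached 1 CPM, a gene with 0 UMIs being set to 3 counts. Intervals are exact at 95%, Poisson for levels, conditional for ratios and Clopper-Pearson for shares. UMIs are counted molecules, and the intervals do not cover differences between cultures. Thinning to 5000 UMIs was without replacement. The procedure was tested on simulated data. Python 3.11.15, numpy 2.4.6, scipy 1.17.1, pandas 2.3.3 and scanpy 1.11.5 were used.

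The members and lists were chosen with earlier results of these data known. Named genes are the 9 members, up to 4 genes per list with the largest and smallest ratios at 10 CPM or more, the 5 genes most correlated with a member (at least 500 UMIs, highest at least 0.2) and the 10 leading genes of cells with at least 5 UMIs of Cxcl10. The same ranking was made for Ifit3, whose leading genes are not printed. Some genes under these rules are not reported here. Other genes are named for their role or after their values were seen. Marker lists of T, B and NK cells, endothelial cells and epithelial cells summed to 0.119, 0.263 and 14.6 CPM in MEF and to 0.241, 0.438 and 0.378 CPM in iMPC. Those of satellite cells and committed myoblasts summed to 65.5 and 626 CPM in MEF and 512 and 1726 CPM in iMPC.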

Additional observations from a re-analysis of the deposited data

Results flagged for a closer look

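All 9 members had UMIs in the 2636580 iMPC barcodes of 1 to 100 UMIs, which lie outside the cells compared above, and each stood above the 0.342 CPM that a count of 0 allows there. Isg15 stood at 18.4 CPM (15.7 to 21.4), Ifit1 at 4.34, Ifit3 at 2.74, Irf7 at 1.60, Bst2 at 65.9, Ifi27 at 74.6, Rsad2 at 0.913, Cxcl10 at 1.48 and Usp18 at 0.571. For Isg15, Ifit1, Ifit3 and Bst2 the counting intervals lay above those of iMPC cells, where Isg15 stood at 4.01 CPM. After these values had been seen, the barcodes were split by whether the MEF matrix also lists them. The 5402 that it lists held 293628 of the 8761056 UMIs but 112 of the 161 UMIs of Isg15, which stood at 381 CPM in them and at 5.79 CPM in the other barcodes. Bst2 stood at 668 and 45.0 CPM, Ifit1 at 102 and 0.945, the collagen gene Col1a1 at 2238 and 195, and the muscle gene Ckm at 10.2 and 89.0. The barcodes listed in both therefore had levels near those of MEF cells, which were 408 CPM for Isg15 and 734 for Bst2. Whether this entered the low values of iMPC cells was not tested beyond leaving out the 16 kept barcodes found in both libraries.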

How the results depend on the processing

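No count of members between iMPC and MEF (6 lower, 0 higher) left the range of 1.5 times under any alternative run, and neither did the counts of members with 50% of their UMIs in 1% of cells. Scaling by the median ratio of common genes (a log2 median of -0.14) changed no call of a member. The alternatives without each member's top cell, without barcodes in both libraries and with MEF Dcn+ cells were chosen after seeing the data. The median log2 ratio between libraries was -7.35 without the 1% of cells with most member UMIs (cells chosen by the values compared, so this supports nothing), -4.21 when CPM were averaged over cells and -6.45 at a minimum of 10 CPM.

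The class counts were less stable, above all in Dcn+ cells. Shares of all genes were not counted under the alternatives of this paragraph. At 12000 UMIs or more, Dcn+ against Pax7+ cells gave 3 higher and 1 lower and Dcn+ against MEF 0 higher, with Cxcl10 turning to -2.16 and -2.11. Without the 1% of cells with most member UMIs, Myog+ against Pax7+ gave 3 lower, Dcn+ against Pax7+ gave 2 higher and 1 lower, and Dcn+ against MEF gave 0 higher. There Ifit1, Rsad2 and Cxcl10 turned to -0.25, -1.60 and -0.83 against Pax7+ cells, and Rsad2 and Cxcl10 to -1.45 and -0.51 against MEF. Without each member's top cell, Dcn+ gave 3 higher against Pax7+ and 0 against MEF, with Cxcl10 at -0.13 against Pax7+. At 1.5-fold, or with cells of more than 1 class left out, Dcn+ against Pax7+ gave 8 higher. At 4-fold, Myog+ and Ckm+ each gave 3 lower, Dcn+ gave 2 higher against Pax7+ and 1 against MEF, and 6 pathway genes were higher. At 10 CPM, Myog+ and Ckm+ each gave 0 lower, Dcn+ gave 2 and 1 higher, and the pathway lists gave 49 lower and 5 higher. The fewer genes tested and the fewer cells belong to these settings, and other causes were not tested.

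No paired analysis was possible because each group holds 1 library, and for the same reason no replicate was left out. At this depth 3 counts correspond to 0.246 CPM in Dcn+ cells and 0.0682 in Pax7+ cells, which limits Usp18 and Ifit3.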

Other observations

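In Dcn+ iMPC cells other immune genes were higher than in Pax7+ iMPC cells, where 14.4% of all genes were higher by 2-fold. For antigen presentation this held for 7 of 11 genes, with none lower, among them H2-K1 at 55.0 and 7.66 CPM and H2-T23 at 20.4 and 3.18 CPM. For the NF-kB and stress list 12 of 23 were higher and 1 was lower. Ptgs2, a prostaglandin synthase, stood at 450 CPM in Dcn+ and 40.2 in Pax7+ cells, Ccl7 at 129 and 12.8, and Ccl2 at 127 and 21.3. Ccl5 stood at 116 CPM in Dcn+ cells and 6.13 in Pax7+ cells. Of 39 other interferon-stimulated genes 18 were higher and 2 were lower, with Plac8 at 55.2 and 6.41 CPM. These genes were chosen after their values were seen. In MEF, Ccl7 and Ccl2 stood at 536 and 508 CPM.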
